A study of Mus musculus with 6 samples.

Results

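Regulators of G protein signaling (RGS) are the proteins that switch off heterotrimeric G proteins, and 10 of their genes, listed as RGS genes of lymphocytes, were followed here: Rgs1, Rgs2, Rgs3, Rgs10, Rgs11, Rgs12, Rgs14, Rgs16, Rgs18 and Rgs19. The rule that picks them uses the gene symbol, and all 10 were found among the 22939 genes of the count table. RNA was sequenced from mouse regulatory T (Treg) cells, with 3 libraries of control cells (ctrl-Treg) and 3 of cells cultured with sorafenib (Sora-Treg). Sora is a multikinase inhibitor given in liver cancer. According to the methods of the study, the cells of both groups came from C57BL/6J mice that carry GFP knocked in at Foxp3, started as naive CD4+ T cells, were stimulated with anti-CD3 and anti-CD28 in the presence of TGF-β1, anti-IFN-γ and anti-IL4, and were sorted for GFP before sequencing. The labels give no difference between the groups other than Sora. The Sora concentration of these cultures, the harvest day and the age of the mice were not given in the sources used here for the sequenced cells. Such cells are a model of Treg cells induced in culture, and the sort keeps cells that express the Foxp3 reporter in both groups.

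A G protein carries signals from chemokine, sphingosine phosphate, adenosine and prostaglandin receptors, and it stays active until its α subunit hydrolyzes GTP. RGS proteins bind the active α subunit and speed up that step, so they shorten the response of a lymphocyte to chemoattractants and other ligands. The family is divided by the parts that flank the shared RGS domain. Rgs1, Rgs2, Rgs3, Rgs16 and Rgs18 belong to the R4 group of mostly small proteins. Rgs10, Rgs12 and Rgs14 form the R12 group, Rgs19 belongs to the RZ group, and Rgs11 belongs to the R7 group, whose proteins are stable only when bound to the β5 subunit.

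Total counts ranged from 30727686 to 37717324 per library, and 3 counts, taken as the floor, corresponded to between 0.0762 and 0.0989 CPM. CPM values are counts scaled to a common library total, here with TMM, a factor per library that aligns the bulk of genes. Such floors cover counting error only. Whether the 3 libraries of a group came from separate cultures or animals was not stated, so p-values measure the spread between these libraries, which may be technical. All 7 marker genes of CD4+ T and Treg cells were detected and tested, and their sum was 3889 to 3930 CPM in ctrl-Treg and 6801 to 6912 CPM in Sora-Treg libraries. Most of that difference came from Il2ra (means of 1934 and 3795 CPM) and Ctla4 (383 and 1108 CPM), with Foxp3 between 252 and 278 CPM and Cd4 between 678 and 724 CPM. The summed level of 9 myeloid marker genes was 118, 117 and 30.3 CPM in ctrl-Treg replicates 1, 2 and 3 and 26.0, 50.8 and 24.6 CPM in the Sora-Treg replicates, and none of the 9 was at 0 in all libraries. It was therefore uneven among the controls, and each result on the RGS genes was also computed without control replicates 1 and 2. That fit keeps control replicate 3 as the only control, so its spread within groups comes from the Sora-Treg libraries alone. B cell markers summed to between 6.09 and 10.7 CPM. Those of CD8 T cells summed to between 12.6 and 15.1 CPM, those of platelets and megakaryocytes to between 6.21 and 9.05 CPM, nearly all of it Itga2b. The markers of NK cells and of erythroid cells had at most 1 and 4 counts in any library. The part of other cell types in the results was not tested, beyond the fit without these controls, and in such bulk samples fewer cells of a type and less RNA per cell cannot be told apart.

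Sora-Treg cells held more Rgs2, Rgs11 and Rgs14 RNA and less Rgs12 RNA than ctrl-Treg cells, and these 4 changes kept their direction and their call in each of 18 alternative analyses. Rgs1 was slightly higher and Rgs3 slightly lower, and both of these calls depended on the analysis. Rgs10, Rgs16 and Rgs19 did not pass the test, and Rgs18 was close to absent. Of the 9 members that passed the filter on low counts, 4 were higher (29.7% of all genes were) and 2 were lower (29.9% of all genes) at an adjusted p under 0.05 in edgeR's quasi-likelihood test with Benjamini-Hochberg adjustment over 13463 genes. That is 66.7% of the tested members, beside 59.6% of all genes tested, so the share of members that changed was near the background. The groups did not overlap in CPM for 6 of the 9, beside 63.7% of all genes. In 5 of them all Sora-Treg libraries were above (31.8% of all genes) and in 1, Rgs12, all were below (32% of all genes). This split depends on the scaling. On the deposited FPKM scale, which divides counts by gene length and library total, the groups overlapped for Rgs1 and Rgs10. All Sora-Treg libraries were below on FPKM for Rgs3, Rgs16 and Rgs19, as for Rgs12, and above for Rgs2, Rgs11 and Rgs14. The share of all genes apart on FPKM was not computed. None of the 9 was a differentially expressed gene (DEG), defined by an adjusted p under 0.05 and a change of over 2-fold, beside 11.3% of all genes (6.3% as higher and 4.97% as lower DEGs). The median log2 fold change was 0.08 over the 9 members and -0.0035 over all genes, and the median absolute log2 fold change was 0.16 and 0.28.

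**Figure D1:**
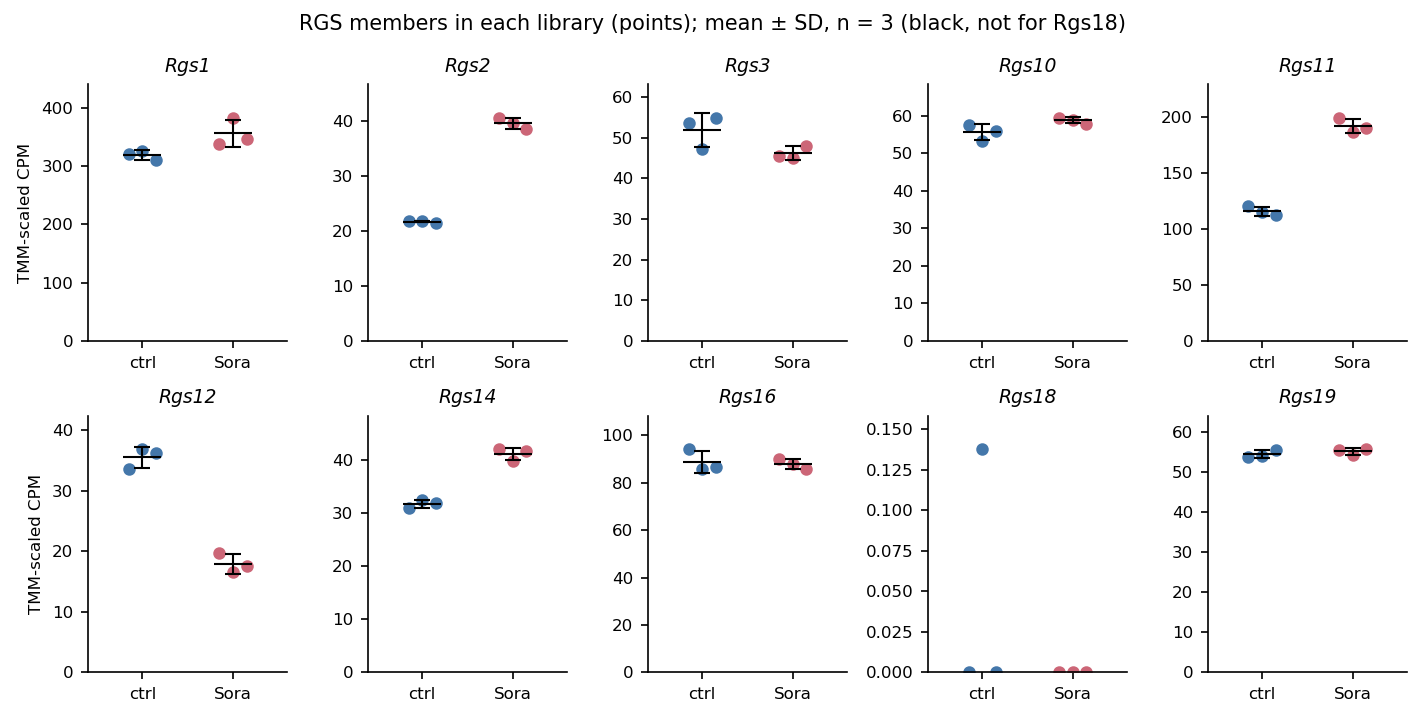
Level of each of the 10 RGS members in each library, as TMM-scaled CPM on axes that start at 0, with 3 ctrl-Treg libraries in blue and 3 Sora-Treg libraries in red and the mean ± SD in black (not drawn for Rgs18). The groups are apart for Rgs1, Rgs2, Rgs10, Rgs11, Rgs12 and Rgs14, while Rgs3, Rgs16 and Rgs19 overlap and Rgs18 was counted in 1 library.

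In the R4 group, Rgs2 changed most. Rgs2 acts mainly on α subunits of the Gq class, which activate phospholipase C. Its level in CPM was 21.7, 21.8 and 21.5 without Sora and 40.5, 39.6 and 38.5 with it. All Sora-Treg libraries were higher than all ctrl-Treg libraries, and the spread within each group was narrow, with an SD of 0.143 and 0.996 CPM. Its log2 fold change was 0.87 ± 0.06 (SE; adjusted p by edgeR = 7.20e-12), a ratio of 1.82, and its 95% confidence interval of 0.75 to 0.99 ended just under the 2-fold limit. Without control replicates 1 and 2, which held the most myeloid RNA, the log2 fold change was 0.88, and that of Rgs11, Rgs14 and Rgs1 was 0.77, 0.36 and 0.20.

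Rgs1, which curbs responses to chemokines and is among the genes switched on in activated and tissue-resident lymphocytes, had the highest count of all members. Its level was 322, 326 and 309.9 CPM in ctrl-Treg and 339, 383 and 347 CPM in Sora-Treg. Every Sora-Treg library lay above every ctrl-Treg library, with Sora-Treg replicate 2 above the rest. On the log2 scale the fold change was 0.16 ± 0.04 (SE; adjusted p by edgeR = 6.70e-04), a ratio of 1.12. With libraries scaled by their totals alone, which lowered the median of all genes by 0.12 on the log2 scale, the value was 0.043 and did not pass (edgeR adjusted p = 0.310). Relative to the median of all genes the change of Rgs1 was 0.16 under both scalings. A change of scaling shifts all genes nearly alike, so such relative values stay the same by construction and do not test the call.

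Rgs16, another regulator of chemokine responses that activated T cells express, was at 94.1, 85.7 and 86.6 CPM in ctrl-Treg and 90.1, 88.0 and 85.9 CPM in Sora-Treg. The groups overlapped, and control replicate 1 was the highest library. This gave a log2 fold change of -0.014 ± 0.041 (SE; adjusted p by edgeR = 0.794), with an interval of -0.10 to 0.07. Under library totals the value was -0.13 and passed (edgeR adjusted p = 0.0100). Relative to the median of all genes it was -0.010 under both scalings, again by construction.

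Rgs3, which has long and short forms that counts per gene cannot separate, was at 53.5, 47.1 and 54.8 CPM in ctrl-Treg and 45.6, 45.0 and 48.0 CPM in Sora-Treg. Control replicate 2 lay among the Sora-Treg libraries, so the groups overlapped. The log2 fold change was -0.16 ± 0.05 (SE; adjusted p by edgeR = 0.0122). The call was lost without control replicate 1, where the log2 fold change was -0.14, and without control replicate 3, where it was -0.12. With library totals the value was -0.28.

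Rgs18 is known from platelets, megakaryocytes and myeloid cells. It had 5 counts in control replicate 2 and 0 counts in each of the other 5 libraries, so it was not tested. Among platelet markers, Pf4 had between 0.0281 and 0.356 CPM and Ppbp had 1 count in all libraries together. The 3 members Rgs2, Rgs1 and Rgs18 lie in 1 stretch of chromosome 1 (143999338 to 144775435, GRCm38), with Rgs13 and Rgs21 between them. Neither Rgs13 nor Rgs21 was found under its symbol in the count table. Within these 776098 bases, Rgs1 was abundant, Rgs2 was lower and rose with Sora, and Rgs18 was nearly uncounted. Rgs16 lies on the same chromosome (153740349 to 153745468), 40026 bases from Rgs8, whose count did not exceed 7.

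In the R12 group the members with several domains went opposite ways. Rgs12 and Rgs14 each carry, beside the RGS domain, a pair of Ras-binding domains and a GoLoco motif that holds inhibitory α subunits in their GDP-bound form. Rgs12 was at 33.6, 36.8 and 36.2 CPM in ctrl-Treg and 19.8, 16.6 and 17.5 CPM in Sora-Treg. Every Sora-Treg library was far below every ctrl-Treg library. Its log2 fold change was -0.99 ± 0.07 (SE; adjusted p by edgeR = 3.41e-11), a ratio of 0.505, and the 95% confidence interval of -1.13 to -0.84 contained the 2-fold limit. Rgs12 was just short of a DEG and became one in 6 of 18 alternatives. Among these were the fits without control replicate 1 (-1.02) and without Sora-Treg replicate 1 (-1.05). The fit with control replicate 3 as the only control (-1.01) is counted among the 6.

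Rgs14 was at 31.04, 32.5 and 32.1 CPM in ctrl-Treg and 42.1, 39.8 and 41.7 CPM in Sora-Treg. The groups were apart, and the log2 fold change was 0.37 ± 0.05 (SE; adjusted p by edgeR = 1.86e-06), a ratio of 1.29. On log2(FPKM + 1) the value was 0.24. The intervals of the log2 fold changes of Rgs12 and Rgs14 lay on opposite sides of 0. On the CPM scale, which does not account for length, Rgs12 was above Rgs14 in each ctrl-Treg library and below it in each Sora-Treg library. With length taken into account the order did not turn. On the deposited FPKM scale Rgs14 was above Rgs12 in both groups. The means of Rgs14 and Rgs12 were 13.6 and 3.36 FPKM in ctrl-Treg and 16.2 and 1.57 FPKM in Sora-Treg.

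Rgs10, the small member of the R12 group, which acts on inhibitory α subunits, was at 57.6, 53.3 and 56.1 CPM in ctrl-Treg and 59.4, 59.0 and 57.9 CPM in Sora-Treg. The Sora-Treg libraries lay above the ctrl-Treg libraries, with a difference between means that was smaller than the range of the ctrl-Treg libraries. On the log2 scale the fold change was 0.08 ± 0.04 with an interval of -0.013 to 0.17 (SE; adjusted p by edgeR = 0.130), and its sign turned to -0.037 with library totals.

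Rgs19, also known as GAIP, named for its binding to an α subunit, was at 53.7, 53.9 and 55.5 CPM in ctrl-Treg and 55.5, 54.1 and 55.6 CPM in Sora-Treg. The groups overlapped. This gave a log2 fold change of 0.019 ± 0.043 with an interval of -0.07 to 0.11 (SE; adjusted p by edgeR = 0.725), and with library totals it was -0.0964. Relative to the median of all genes, Rgs10 was at 0.08 and Rgs19 at 0.022 under both scalings, which holds by construction.

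Rgs11, the R7 member, is best known from retina and brain. It was at 120 CPM in control replicate 1, 115 CPM in control replicate 2 and 112 CPM in control replicate 3, and at 199, 187 and 190 CPM in the Sora-Treg libraries. All 3 Sora-Treg libraries were higher. The log2 fold change was 0.73 ± 0.04 (SE; adjusted p by edgeR = 3.67e-14), a ratio of 1.65. Rgs11 (chromosome 17, 26202951 to 26211324, plus strand) overlaps Arhgdig on the minus strand. Arhgdig had 269, 264 and 263 counts in ctrl-Treg libraries and 280, 319 and 374 in Sora-Treg libraries, against 3586 to 6752 counts for Rgs11. Strand handling is not given, so how reads of the shared stretch were divided between these genes cannot be told.

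**Figure D2:**
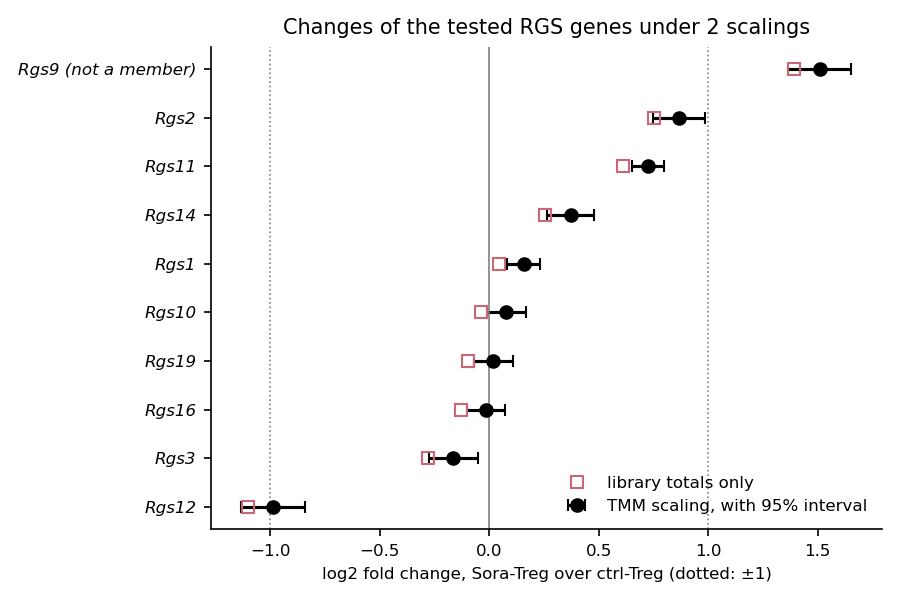
Log2 fold change (x axis, Sora-Treg over ctrl-Treg) of the 9 tested members and of Rgs9, with filled points and 95% intervals for TMM scaling and open squares for library totals alone. The interval of Rgs12 crosses -1, that of Rgs2 ends just below 1, and Rgs10 and Rgs19 lie on different sides of 0 under the 2 scalings.

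Of 11 other RGS genes listed, 6 were in the count table and Rgs9 alone passed the filter. Rgs9 is the R7 relative of Rgs11 that ends the light response in photoreceptors. It was at 12.1, 11.2 and 11.8 CPM in ctrl-Treg and 32.4, 32.9 and 34.5 CPM in Sora-Treg, with every Sora-Treg library higher. Its log2 fold change was 1.51 ± 0.07 (SE; adjusted p by edgeR = 1.28e-14), so Rgs9 was a DEG although no member was, and it stayed one in 16 of 18 alternatives. The remaining 5, Rgs5, Rgs6, Rgs8, Rgs20 and Rgs22, had at most 27 counts in any library. Both R7 genes that passed the filter were therefore higher. Rgs4, Rgs7, Rgs13, Rgs17 and Rgs21 were listed but not found under these symbols in the count table. Gnb5, the β5 partner of R7 proteins, was looked up after its value had been seen, and was at 11.9, 12.4 and 12.1 CPM in ctrl-Treg and 24.6, 20.3 and 18.04 CPM in Sora-Treg. Its log2 fold change was 0.79 ± 0.10 (SE; adjusted p by edgeR = 2.06e-07). The membrane anchors of R7 proteins were low, with at most 1 count for Rgs7bp and at most 33 counts for Rgs9bp in any library.

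Promoter sequence of the members is shown for Rgs2 and Rgs12, which changed most in opposite directions, so that their start regions can be set side by side. RefSeq windows on GRCm38.p6 were found for 6 of the 10 members (Rgs2, Rgs3, Rgs10, Rgs12, Rgs16 and Rgs19), 10 windows in all. The sequences below end before the first annotated exon and are 238 and 247 bases long, at chr1:144004162-144004399 (minus strand) and chr5:34949198-34949444 (plus strand). No base is in capitals, because none of the motifs searched was found in either.
Rgs2: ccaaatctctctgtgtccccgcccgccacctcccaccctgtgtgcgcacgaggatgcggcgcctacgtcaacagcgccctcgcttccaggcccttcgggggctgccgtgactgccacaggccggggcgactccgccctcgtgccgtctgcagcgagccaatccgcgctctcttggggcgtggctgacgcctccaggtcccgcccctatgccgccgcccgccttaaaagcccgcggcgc
Rgs12: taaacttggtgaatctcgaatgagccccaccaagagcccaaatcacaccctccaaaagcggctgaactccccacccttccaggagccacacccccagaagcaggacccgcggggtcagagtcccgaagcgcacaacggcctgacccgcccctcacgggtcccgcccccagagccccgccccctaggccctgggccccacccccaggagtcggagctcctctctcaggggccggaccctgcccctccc

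The motifs searched, on both strands of the 250 bases before each start, were the cyclic AMP response element (TGACGTCA), the AP-1 site (TGANTCA), the FOXO site (GTAAACA), the NFAT core (GGAAAA) and the E-box (CACGTG). Over all 32851 RefSeq windows of that length they were present in 1.55%, 6.75%, 3.17%, 20.4% and 6.02%. None of these motifs contains another. In the 10 windows of members 2 matches were found, and the 30 bases around each are shown with the match in capitals, as a description of these letters alone. The AP-1 match lies before a second, internal start of Rgs12 (chr5:34999045-34999074, plus strand), at bases -22 to -16 from that start. All but its first base lies in an annotated exon of Rgs12. The NFAT match lies before a start of Rgs19 (chr2:181694146-181694175, minus strand), at bases -187 to -182.
Rgs12 internal start: gccccaaggctTGACTCActgtctgcctct
Rgs19: cataaaggttgGGAAAAcccagctaacaag
The printed stretches of Rgs2 and Rgs12 had a GC content of 71.8% and 68.4% with 28 and 13 CpG dinucleotides, while the median of all windows was 52.4% and 6 CpG.

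Levels of different members were compared on the deposited FPKM scale, which divides counts by gene length and library total. On that scale Rgs1 was highest, at 246 ± 6.43 FPKM without Sora and 253 ± 16.4 FPKM with Sora (SD, n = 3). In ctrl-Treg cells Rgs16 (39.5 ± 2.17), Rgs10 (37.5 ± 1.55) and Rgs11 (37.4 ± 1.38 FPKM) followed and were not separated from their neighbors in the order, since their libraries overlapped. Rgs19 (21.1 ± 0.375), Rgs14 (13.6 ± 0.278), Rgs2 (7.49 ± 0.0546), Rgs3 (4.56 ± 0.371) and Rgs12 (3.36 ± 0.154 FPKM) came next, each apart from the one before. In Sora-Treg cells Rgs11 rose to the second place with 57.1 ± 2.04 FPKM, apart from Rgs10 and Rgs16, which still overlapped each other. From Rgs19 downward the order was the same in both groups. Rgs11 made up 9.11% ± 0.168 of the summed FPKM of the 10 members without Sora and 13.1% ± 0.792 with it, and Rgs1 made up 59.9% ± 0.851 and 57.9% ± 1.98 (SD, n = 3).

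The order rests on the gene lengths used. The length implied by the deposited values was 1350 bases for Rgs1 and 11820 bases for Rgs3. In GENCODE M21 the longest coding transcript of these genes has 3841 and 4698 bases, and the union of exons 6947 and 10801 bases. In ctrl-Treg cells the level of Rgs1 was 6.22 times that of the next member with the deposited lengths, 1.31 times with the longest coding transcript and 1.21 times with the exon union. In Sora-Treg cells the corresponding ratio of Rgs1 to Rgs11 was 4.43 with the deposited lengths and 1.12 with the exon union, and with the longest coding transcript Rgs11 was 1.03 times Rgs1. The wide lead of Rgs1 was thus seen with the deposited length only. The exon union of Rgs1 is as long as its whole locus (6947 bases). Which Rgs1 transcripts these cells make was not measured, so the length that applies is not known. Rgs12 remained the lowest of the 9 tested members in both groups under each of the 3 lengths.

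**Figure D3:**
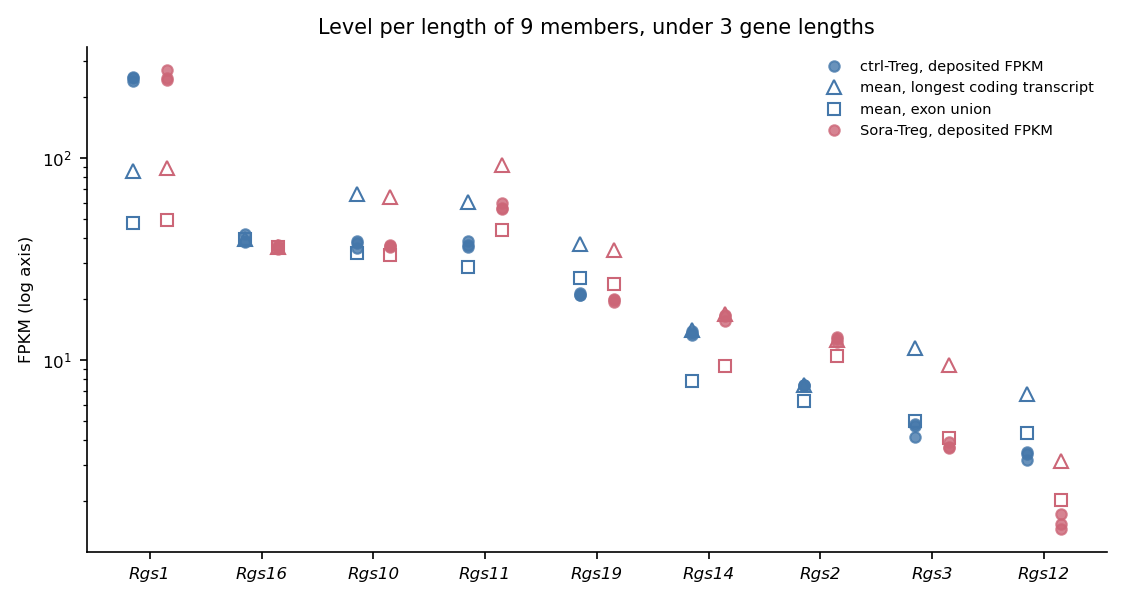
Level per length of the 9 tested members on a log axis, with filled points for the deposited FPKM of each library (ctrl-Treg blue, Sora-Treg red) and open triangles and squares for the group mean when the length is that of the longest coding transcript or of the exon union. Rgs1 falls from 246 FPKM to 86.5 and 47.8 in ctrl-Treg cells with the other lengths, while Rgs12 stays lowest.

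The RGS genes were set beside the other parts of the G protein cycle, from lists written from general knowledge. Of 10 tested α subunit genes, 7 were higher and 2 lower, 90% in all beside 59.6% of all genes, with a median log2 fold change of 0.24 beside -0.0035. Gnai2, the main inhibitory α subunit of lymphocytes and the most abundant of the list, rose by 0.24 ± 0.03 (log2, SE), or by 0.13 with library totals. The DEGs were Gnal, which encodes a stimulatory α subunit, with 2.05 ± 0.08, and Gnaz, a slow inhibitory α subunit that RZ proteins act on, with 1.88 ± 0.16 on the log2 scale (SE; adjusted p by edgeR = 1.58e-15 and 1.13e-09). Gnaz was low, at 2.18 ± 0.532 and 7.93 ± 0.714 CPM (SD, n = 3). On log2(FPKM + 1), which understates changes of low genes, Gnal was at 1.28 and Gnaz at 0.77, so that Gnaz was no DEG there. Of 10 tested β and γ subunit genes, 7 were higher and 1 lower, 80% in all beside the same 59.6%, with a median of 0.24. Gngt2 was the DEG among them (1.12 ± 0.05), though not on FPKM (0.97 on log2(FPKM + 1)), and Gnb1 was the most abundant (0.15 ± 0.03, log2, SE), though it did not pass with library totals (0.033).

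Among 20 tested genes for other proteins that bind or regulate G proteins or their receptors, 7 were higher and 6 lower, 65% in all and thus near the 59.6% of all genes, with a median of -0.012. The DEG was Arrb1, encoding β-arrestin 1, which uncouples receptors from G proteins and rose from 231 ± 0.290 to 691 ± 12.6 CPM (SD, n = 3), by 1.58 ± 0.03 on the log2 scale (SE), with an adjusted p of 1.19e-22 by edgeR. Grk2, a receptor kinase and the most abundant gene of that list by FPKM added over both groups, was at -0.27 ± 0.03 (log2, SE, edgeR adjusted p = 2.24e-08). Of 21 tested trafficking receptors, 13 were higher and 7 lower, 95.2% in all beside 59.6% of all genes. DEGs numbered 5 higher and 4 lower, 9 in all, beside 11.3% of all genes. Among DEGs whose mean log2 CPM reached 1 were Ltb4r1 (2.86 ± 0.21), Ccr2 (2.51 ± 0.16), Cxcr3 (-1.36 ± 0.14) and Gpr18 (1.26 ± 0.05, log2, SE), and Ccr7, the most abundant, was at 0.70 ± 0.02. On log2(FPKM + 1) Ltb4r1 was at 1.76 and Ccr2 at 1.09. Of 8 tested effector genes, phospholipases C-β and adenylyl cyclases, 3 were higher and 1 lower, 50% in all beside 59.6% of all genes, with a median of 0.07. Adcy7, the most abundant of these, was at 0.11 ± 0.04 (log2, SE, edgeR adjusted p = 0.0450), a call that 12 of 18 alternatives did not give.

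**Figure D4:**
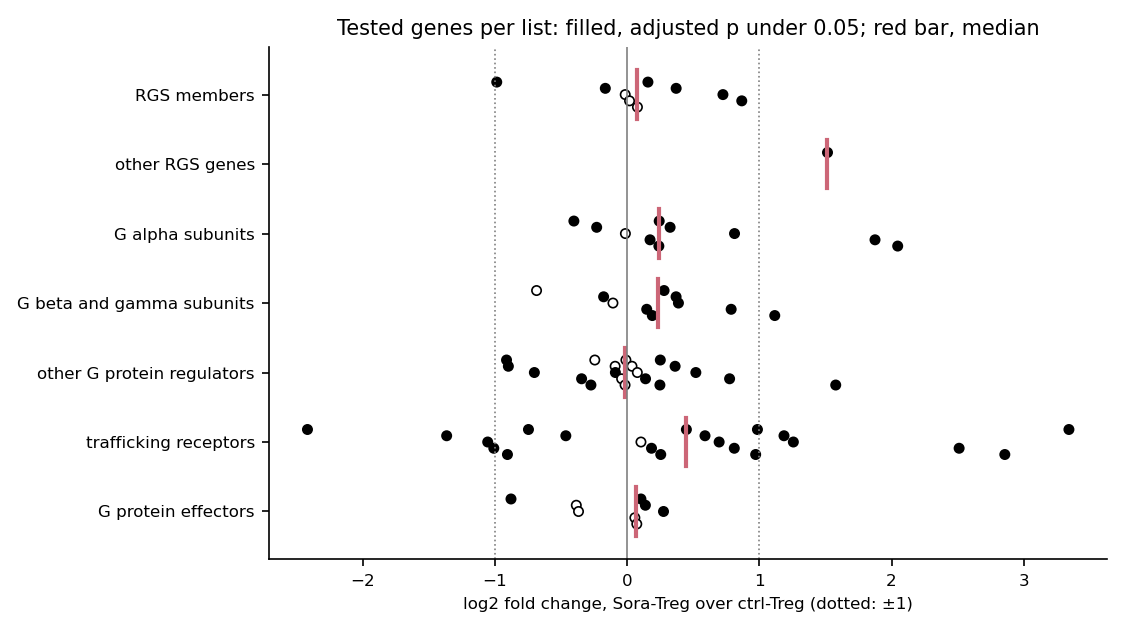
Log2 fold change (x axis, Sora-Treg over ctrl-Treg) of each tested gene in 7 lists, filled where the edgeR adjusted p is under 0.05, with a red bar for the median of the list. The 9 RGS members all lie within ±1, while 9 of the trafficking receptors lie beyond ±1 and Rgs9 stands at 1.51.

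**Figure D5:**
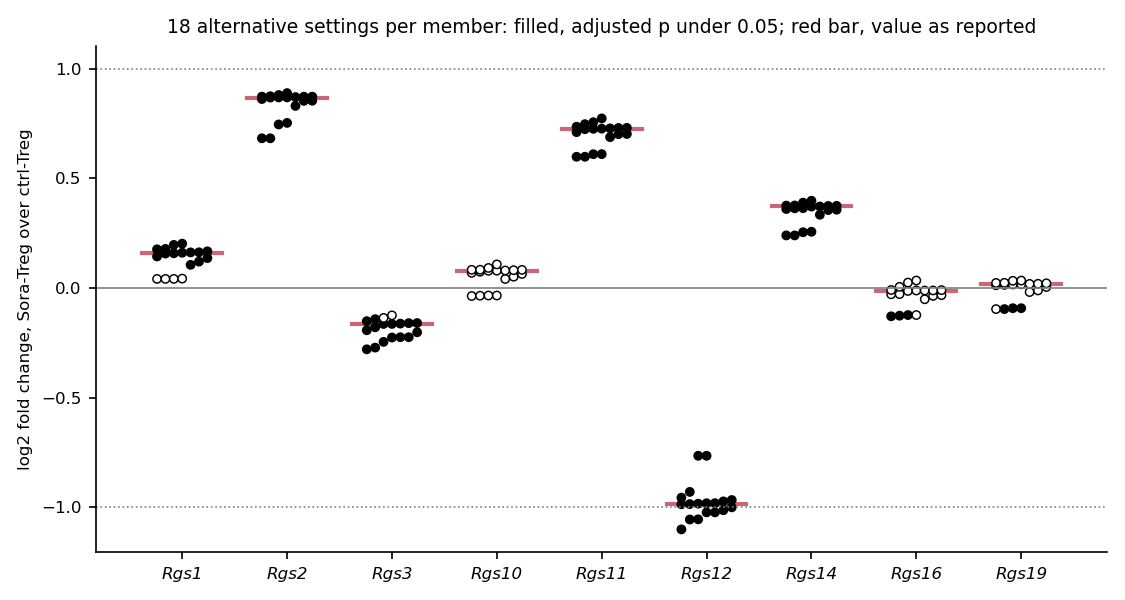
Log2 fold change (y axis) of each tested member under 18 alternative analyses, filled where the adjusted p is under 0.05, with a red bar for the value as reported. Rgs2, Rgs11, Rgs12 and Rgs14 keep their sign and their call throughout, whereas Rgs1 and Rgs3 lose their call in 4 and 2 of the alternatives. Rgs10, Rgs16 and Rgs19 scatter around 0. Rgs10 passes in none, but Rgs16 passes as lower with library totals and on filtered FPKM, and Rgs19 passes as lower on FPKM.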

How the data were processed

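RNA-seq libraries of GFP-sorted mouse Treg cells (3 control, 3 Sora) were grouped by their titles. Deposited by the authors were raw read counts, 1 row per gene symbol, and FPKM values of these genes. The study's methods name BGISEQ-500 sequencing and Bowtie2 on GRCm38, whereas the submitters' processing notes name fastp, HISAT2, HTSeq and GRCm39. Strand handling and the annotation release are not given in the sources used here, so reads of a gene and its antisense partner cannot be told apart (Rgs3, Rgs11, Rgs12 and Rgs16 overlap opposite-strand genes). The deposited FPKM values were the counts over a length fixed for the gene and over the sum of the library (largest relative difference 1.64e-06), so FPKM is no second measurement.

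Counts were tested with edgeR 4.0.16 (R 4.3.3; TMM, filterByExpr, quasi-likelihood, no covariate, two-sided, Benjamini-Hochberg over 13463 genes). DEGs passed the adjusted threshold of 0.05 with an absolute log2 fold change over 1. Standard errors are those implied by the F statistic, and 95% intervals use its degrees of freedom. Alternatives were RLE, upper quartile and library-total scaling, other filters, DESeq2 1.42.0, a robust fit, a block for the replicate number, limma 3.58.1 on log2(FPKM + 1) or log2(FPKM + 0.1) with FPKM of at least 0.5 in 3 samples or without a filter, and leaving libraries out. Other gene lengths were added after the data had been seen. The code was tested on simulated data. Pairs of libraries within a group differed by more than sampling noise (chi-square per degree of freedom 3.36 to 5.91).

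Members and lists were chosen with earlier results of these data known. Named genes were all members, the DEGs of each list (at most 5, by absolute log2 fold change among those whose mean log2 CPM reached 1) and the most abundant gene of each list. The values of 1 gene that this rule names are not reported here. Loci are from GENCODE M21 (GRCm38), promoters from RefSeq (GRCm38.p6). Protein sequences were not used here.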

Additional observations from a re-analysis of the deposited data

How the results depend on the processing

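Rgs2, Rgs11, Rgs12 and Rgs14 kept their direction and call under all 18 alternatives, with log2 fold changes of 0.68 to 0.89, 0.60 to 0.77, -1.10 to -0.76 and 0.24 to 0.40. With a library left out, Rgs12 ranged from -1.05 to -0.93 and the number of members called as lower DEGs from 0 to 1. That number was 1 with upper quartile scaling, library totals and log2(FPKM + 0.1). Rgs1 was 0.043 with library totals and 0.0411, 0.0412 and 0.0411 on the 3 FPKM analyses, and did not pass there. FPKM is scaled by library totals, which shift all genes by -0.12. On the same 4 settings Rgs10 turned to -0.0368, -0.0346, -0.0354 and -0.0346 and Rgs19 to -0.0964, -0.0923, -0.0964 and -0.0923, where Rgs19 passed on FPKM but not with library totals, and Rgs19 was -0.0189 with upper quartile scaling. Rgs16 passed at -0.129, -0.124 and -0.126 with library totals and on filtered FPKM. Without control replicates 1 and 2, Rgs16 was 0.0245 and Rgs19 -0.0114. With a library left out, Rgs1 ranged from 0.11 to 0.20, Rgs3 from -0.23 to -0.12, Rgs10 from 0.051 to 0.11, Rgs16 from -0.0364 to 0.0338 and Rgs19 from 0.012 to 0.033. Rgs16 turned positive without control replicate 1 (0.0338) or Sora-Treg replicate 3 (0.00514). The number of members called lower was 4 on filtered FPKM, with either pseudocount, and 1 to 2 with a library left out.

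The replicate numbers gave no sign of pairing, since deviations of libraries with 1 number correlated at -0.0438, 0.0591 and 0.0299. With the number as a block, Rgs2 was 0.87, Rgs12 -0.99 and Rgs3 -0.16, no call among the members changed, and 2 effector genes were lower rather than 1. Lower α subunit genes numbered 1 to 2 with a library left out and 0 without control replicates 1 and 2. Higher β and γ subunit genes numbered 3 on unfiltered FPKM. Lower ones numbered 2 with library totals and on all FPKM analyses, 0 without control replicates 1 and 2, and 0 to 1 with a library left out. Higher effector genes numbered 1 with library totals and 0 on all FPKM analyses. Lower ones numbered 2 with upper quartile scaling, library totals and the filter of 1 count in some library, and 1 to 2 with a library left out. Adcy7 turned to -0.0104 with library totals and -0.00861, -0.00939 and -0.00861 on FPKM. Over all genes, 3994 were higher and 4028 lower, of which 848 and 669 were DEGs. On log2(FPKM + 1), log2(FPKM + 0.1) and unfiltered FPKM 2502, 2494 and 2577 were higher, and 275, 454 and 274 were higher DEGs. Lower DEGs numbered 189 on log2(FPKM + 1) and 185 without a filter. With library totals 2862 were higher and 5614 lower. Of 15 other genes that the naming rule chose, 13 kept direction and the call at an adjusted p under 0.05 throughout, and Gnb1 and Adcy7 did not. Beyond the settings whose scaling shifts all genes, the cause of these changes was not tested. The 6 RGS genes below the filter, Rgs18 among them, were not tested in the main analysis, so whether they changed is not known.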
